A study of Mus musculus with 12 samples.

Results

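The 36 genes described here serve glycolysis and the response to low oxygen. They are 17 glycolytic enzymes, 18 other targets of the hypoxia-inducible factors (HIFs), and Hif1a, which encodes the oxygen-regulated HIF-1 alpha subunit. The genes were taken by symbol from a written list, and all 36 were found among the 17090 genes of the deposited table. The list was made with earlier results of these data known, so its shares beside those of all genes are a description. All 36 were also among the 12966 genes that reached 1 CPM (reads of a gene scaled by library depth, after the authors' TMM correction) in at least 3 of the 12 libraries and were tested, so no member was set aside for low values.

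Messenger RNA was sequenced from primary skin cells, the keratinocytes of K14-SmoM2 mice. In this basal cell carcinoma model an active form of the Hedgehog signal transducer Smoothened is made in the keratin 14 expressing epidermis. The cells were isolated from the tail skin 5 weeks after tamoxifen. The siYAP1+TAZ group received pooled small interfering RNAs against Yap1 and Wwtr1, the gene of TAZ, and the siControl group a non-targeting pool, each at 8 pmol per cm2. The Ad-TEADi group was transduced with an adenovirus expressing TEADi, an inhibitor of the TEAD transcription factors, and the Ad-GFP group with a virus expressing green fluorescent protein, both from the CMV promoter and at a multiplicity of infection of 25. All 4 groups carried SmoM2, were kept in 60 µM calcium with 10 ng/ml EGF and 10 µM Y-27632, and were harvested at 48 h. Each group held 3 libraries, lettered A to C. Nothing in the labels says that they came from separate cultures or mice, so each p-value sets a difference against the spread among these libraries alone, and that spread may be technical. The sources used here do not give the oxygen level of the cultures, and HIF-1 alpha protein was not measured.

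Depth was 20.0 to 29.1 M reads per library if the lowest value of each column is taken as 1 read. Only 82.7% to 85.0% of low values were whole reads at that step, so this depth is an estimate. Yap1 averaged 67.1 ± 4.62 CPM in siYAP1+TAZ and 196 ± 9.57 CPM in siControl libraries (SD, n = 3 each), and Wwtr1 28.1 ± 1.97 CPM and 55.2 ± 1.96 CPM. The TEAD targets Ccn1 and Ccn2 fell by 1.69 and 2.31 on the log2 scale with siYAP1+TAZ and by 1.68 and 3.37 with Ad-TEADi (limma, adjusted p below 0.05 for each). All 10 keratinocyte markers were detected in every library, and their summed level was 43468 to 47619 CPM. Of these 10, 5 rose and 4 fell with siYAP1+TAZ (log2 changes of −0.85 to 0.78). With Ad-TEADi 6 rose and 4 fell (−0.46 to 0.36). Krt5 averaged 14696 ± 606 CPM with siYAP1+TAZ and 17783 ± 538 CPM with siControl, and Krt14 16311 ± 456 CPM and 14887 ± 259 CPM. Of 15 suprabasal differentiation markers, 15 rose with siYAP1+TAZ and 14 with Ad-TEADi. Their summed level was 13160 to 14425 CPM in siYAP1+TAZ, against 2525 to 2868 CPM in siControl libraries, and 5999 to 6276 CPM in Ad-TEADi, against 1882 to 2498 CPM in Ad-GFP libraries. The keratin genes of the suprabasal layers, Krt10 and Krt1, changed by 3.98 and 2.52 (log2) with siYAP1+TAZ and by 2.98 and 1.60 with Ad-TEADi. The 6 immune cell markers in the table summed to 50.1 to 51.9 CPM in siYAP1+TAZ and 17.5 to 18.3 CPM in siControl libraries, and to 40.6 to 44.5 CPM in Ad-TEADi and 17.6 to 20.0 CPM in Ad-GFP libraries. Of the 4 that were tested, 3 rose and 1 fell in each comparison. Fibroblast, melanocyte and endothelial lists summed to no more than 13.5 CPM in any library. No gene of the deposited table was at 0 in any library, so a value above 0 does not show that a marker was present. The table held 5 of 6 listed fibroblast, 6 of 7 immune and 5 of 6 endothelial markers. The markers Lum, Cd3e and Kdr were not analysed here. The part of differentiation, or of other cells, in the changes below was not tested. In bulk RNA, fewer cells of a type and less RNA per cell cannot be told apart.

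Glycolysis turns glucose into pyruvate, and lactate dehydrogenase turns pyruvate into lactate. When oxygen is low, the EGLN prolyl hydroxylases work less, the HIF alpha subunits escape degradation and bind a short core motif, ACGTG, near genes for glucose uptake, glycolysis, blood vessel growth, mitochondrial turnover and collagen hydroxylation. The coactivators YAP1 and TAZ reach DNA mainly through TEAD factors, whose binding motif has the core GGAATG.

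The 250 bases before an annotated start site are shown for 4 members, because they carry the HIF core 1 to 5 times and because these genes changed unlike each other: Hk2, Egln3 and Bnip3 rose in both comparisons, while Ldha passed the test with Ad-TEADi and not with siYAP1+TAZ. The sequences are those of RefSeq on GRCm38.p6, written 5′ to 3′ on the gene's strand, with ACGTG and its reverse complement CACGT in capitals. The palindrome CACGTG is a match on both strands.
Hk2 (chr6:82774455-82774704, minus strand): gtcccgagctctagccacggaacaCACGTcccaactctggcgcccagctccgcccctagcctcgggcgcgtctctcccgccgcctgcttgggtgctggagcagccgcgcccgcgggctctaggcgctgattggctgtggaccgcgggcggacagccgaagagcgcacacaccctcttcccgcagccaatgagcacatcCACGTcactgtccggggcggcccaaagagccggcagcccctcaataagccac
Ldha (chr7:46845554-46845803, plus strand): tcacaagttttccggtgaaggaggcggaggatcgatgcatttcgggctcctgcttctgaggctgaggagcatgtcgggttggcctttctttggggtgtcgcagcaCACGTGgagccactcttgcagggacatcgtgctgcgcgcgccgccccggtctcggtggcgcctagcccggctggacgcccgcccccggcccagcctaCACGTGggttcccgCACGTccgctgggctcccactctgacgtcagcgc
Bnip3 (chr7:138909507-138909756, minus strand): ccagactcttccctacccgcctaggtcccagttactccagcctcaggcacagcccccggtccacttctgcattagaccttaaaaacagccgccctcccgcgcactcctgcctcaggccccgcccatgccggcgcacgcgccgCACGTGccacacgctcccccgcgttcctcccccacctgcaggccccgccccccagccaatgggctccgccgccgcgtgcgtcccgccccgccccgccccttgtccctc
Egln3 (chr12:54203875-54204124, minus strand): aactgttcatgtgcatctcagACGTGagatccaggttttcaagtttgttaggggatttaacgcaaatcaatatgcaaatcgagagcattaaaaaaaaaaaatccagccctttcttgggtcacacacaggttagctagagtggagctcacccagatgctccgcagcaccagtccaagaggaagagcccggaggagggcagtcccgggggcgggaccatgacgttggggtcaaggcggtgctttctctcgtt
Hk2 had 2 matches, which begin 226 and 52 bases before the start site. Ldha had 5 matches counted over both strands, of which 4 form 2 palindromes. RefSeq lists a second start site for Ldha, and its window (chr7:46846832-46847131, plus strand) had 0 matches. The 2 matches of Bnip3 form 1 palindrome, and Egln3 had 1 match.

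RefSeq windows from 250 bases before to 50 bases after a start site were matched by symbol for 34 of the 36 members, not for Ndrg1 and Bnip3l. Counted by gene on either strand, ACGTG was found in 25 of these 34 members (73.5%), in 11 of 17 glycolytic enzymes (64.7%) and in 13 of 16 other HIF targets. Of all genes of the deposited table with a window, 28.2% held it. Genes differ in their number of windows, and counted by window the shares were 54.7% of 53 member windows and 19.6% of all 32851 windows. GGAATG was found in 7.55% of member windows and 14.7% of all windows, and by gene in 3 of 17 enzymes (17.6%) and 0 of 16 other HIF targets, where 14.9% of all genes held it. These are letter matches, and nothing about binding was measured. The members were listed as glycolytic or hypoxia-inducible genes, so their higher share of the HIF core is not independent evidence. The windows compared were not matched for base composition.

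Knockdown of YAP1 and TAZ was first compared with the non-targeting control. Of the 18 other HIF targets, 14 rose and 2 fell with siYAP1+TAZ relative to siControl, and of the 17 enzymes 8 rose and 2 fell (limma on log2(CPM + 1), Benjamini-Hochberg adjusted p below 0.05 over all tested genes, which is what rose and fell mean throughout). Across all 12966 genes 68.9% passed, 32.7% as higher and 36.1% as lower. The other HIF targets thus rose at a share of 77.8% and the enzymes at 47.1%, both above 32.7%, and fallers were fewer than among all genes in both. Because the members were chosen with earlier results of these data known, these shares describe the listed genes and test nothing. The median log2 change was 0.53 for the other HIF targets and 0.06 for the enzymes, beside −0.03 for all genes. On the log2(CPM + 1) scale, 3 other targets (Ndrg1, Egln3 and Vegfa) and 1 enzyme (Hk2) rose at least 2-fold. Of all genes 7.48% rose as far. That scale understates changes of low genes, and the low gene Ankrd37 had a ratio of 2.18 in the authors' deposited table.

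Expression of the TEAD inhibitor was compared with expression of green fluorescent protein. With Ad-TEADi 13 of 17 enzymes rose and 3 fell relative to Ad-GFP, and 15 of 18 other HIF targets rose. None of these 18 fell, at an adjusted or an unadjusted p below 0.05 (limma) or in the authors' deposited table. Of all genes 59.8% passed, 33.5% as higher and 26.3% as lower. The medians were 0.28 for the enzymes, 0.42 for the other targets and 0.03 for all genes. Ndrg1, Vegfa, Egln3 and Hk2 were again the members that rose at least 2-fold, as 3.92% of all genes did.

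Of the 36 members, 21 rose in both comparisons, which have separate control libraries, where 20.7% of all genes rose in both. These were 6 enzymes, 14 other targets and Hif1a. Ldhb alone fell in both, as 17.6% of all genes did. Counted by libraries that do not overlap, 23 members were higher and 4 lower in siYAP1+TAZ than in siControl, where 34.4% and 37.8% of all genes were. With Ad-TEADi 29 members were higher and 3 lower than with Ad-GFP, where 35.5% and 28.5% of all genes were. In the authors' deposited table each of the 36 members had the call that limma gave it, in each comparison, at an adjusted p below 0.05.

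**Figure D1:**
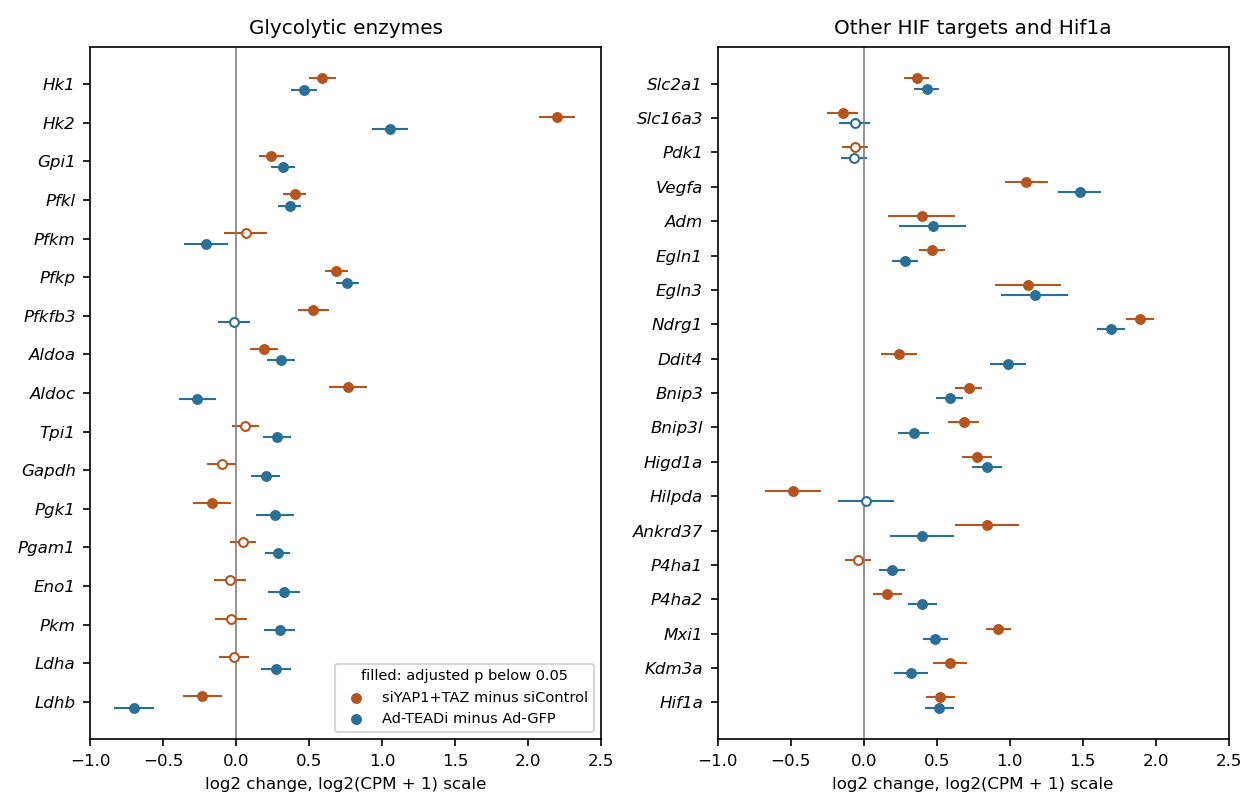
Log2 change (x axis, log2(CPM + 1) scale) of each of the 36 genes (y axis, enzymes in pathway order) for siYAP1+TAZ minus siControl in brown and Ad-TEADi minus Ad-GFP in blue, with 95% confidence intervals from limma; filled points have an adjusted p below 0.05. Hk2, at 2.20 and 1.05, stands apart from the other enzymes, and from Tpi1 to Ldha the brown points lie at −0.17 to 0.06 while the blue points lie at 0.20 to 0.32.

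**Figure D2:**
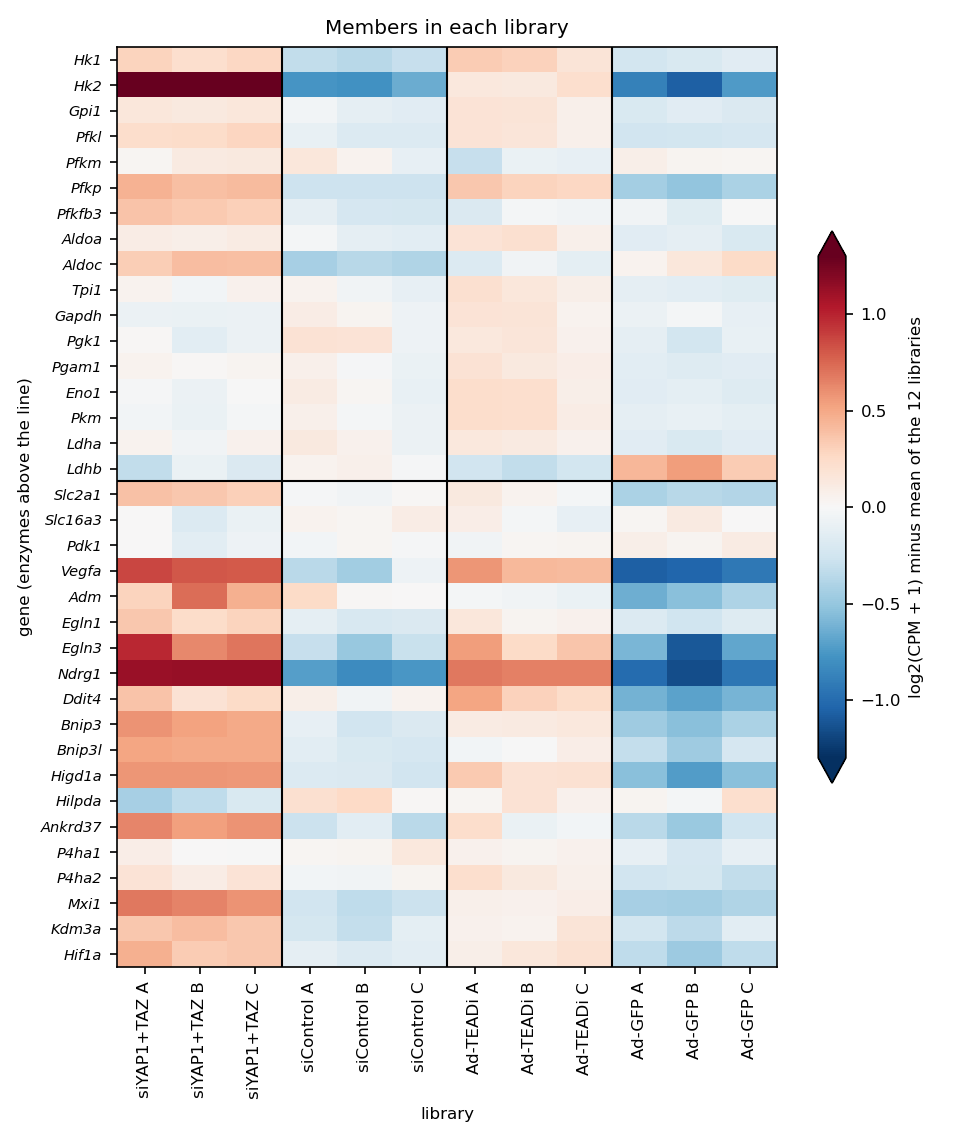
Each gene in each of the 12 libraries, as log2(CPM + 1) minus the gene's mean over all libraries (colour, red above and blue below the mean; values past 1.3 take the end colour), with the enzymes above the horizontal line. Hk2 and Ndrg1 are far above their mean in all 3 siYAP1+TAZ libraries, and the Ad-GFP libraries hold the lowest values of Vegfa, at 56.3 to 61.8 CPM.

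The counts depend on how the libraries are scaled. The column totals of the deposited values averaged 1017558 CPM in siYAP1+TAZ and 890008 CPM in siControl libraries, and 924595 CPM in Ad-TEADi and 864071 CPM in Ad-GFP libraries. With the columns rescaled to equal totals, the median log2 change of all genes moved by −0.17 for siYAP1+TAZ and by −0.09 for Ad-TEADi. Under quantile normalization the median was −0.09 with siYAP1+TAZ and −0.005 with Ad-TEADi. Counts of all genes are not given here for that normalization. With siYAP1+TAZ 2837 genes rose and 7146 fell under equal totals, in place of 4245 and 4687. Of the enzymes 6 rose and 8 fell, and of the other HIF targets 12 rose and 4 fell, under equal totals and under quantile normalization alike. With Ad-TEADi 3034 genes rose and 4719 fell under equal totals, in place of 4339 and 3415. There the enzymes kept 12 risers under equal totals and 11 under quantile normalization, and the other targets 14 risers with 2 fallers under both.

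Hk2 changed most among the enzymes in both comparisons. Hexokinase phosphorylates glucose on entry, and Hk2 (chr6:82725025-82774454, minus strand on mm10) encodes its inducible form. In the knockdown experiment Hk2 measured 378, 398 and 396 CPM in the siYAP1+TAZ libraries, against 82.7, 81.1 and 89.7 CPM in the siControl libraries. In the adenovirus experiment it measured 155, 154 and 164 CPM in the Ad-TEADi libraries, against 76.2, 67.3 and 84.4 CPM in the Ad-GFP libraries. Both pairs of groups were separated by a wide gap, and the siYAP1+TAZ libraries were the highest of all 12. The log2 change was 2.20 ± 0.060 (SE) with siYAP1+TAZ (limma, adjusted p = 1.24e-16), a ratio of mean CPM of 4.62, and 1.05 ± 0.060 (SE) with Ad-TEADi (adjusted p = 9.64e-12), a ratio of 2.08. The effects differed by −1.14 ± 0.085 (SE) on the log2 scale, Ad-TEADi minus siYAP1+TAZ (limma, adjusted p = 2.83e-09).

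Hk1, the hexokinase made in most tissues, rose in both comparisons. It measured 156, 148 and 153 CPM in the siYAP1+TAZ libraries, against 101, 98.7 and 103 CPM in the siControl libraries, with no overlap. The Ad-TEADi libraries held 160.4, 157 and 144 CPM, against 107, 111 and 115 CPM with Ad-GFP, again with no overlap. Its log2 changes were 0.59 ± 0.044 (SE) and 0.46 ± 0.044 (SE), and the interval of their difference was −0.25 to 0.00. Gpi1, which turns glucose 6-phosphate into fructose 6-phosphate, rose by 0.24 and 0.32. The siYAP1+TAZ call of Gpi1 was lost under equal totals, where its change was 0.05, and under quantile normalization.

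Phosphofructokinase commits sugar to glycolysis, and its platelet-type subunit Pfkp (chr13:6579768-6648777, minus strand) rose in both comparisons. Pfkp measured 319, 306 and 309.6 CPM in the siYAP1+TAZ libraries, against 194, 194 and 193 CPM in the siControl libraries. Its Ad-TEADi libraries held 297, 285 and 281 CPM, against 171, 162 and 175 CPM with Ad-GFP. The groups did not overlap, and the siControl libraries were nearly equal. The log2 changes were 0.68 ± 0.038 (SE) with siYAP1+TAZ and 0.76 ± 0.038 (SE) with Ad-TEADi, and they did not pass the test of a difference (limma, adjusted p = 0.23). The liver-type subunit Pfkl rose by 0.40 and 0.37. The muscle-type subunit Pfkm was low in all libraries, at 13.7 to 19.11 CPM. It changed by 0.06 with siYAP1+TAZ, which did not pass the test, and fell by 0.21 with Ad-TEADi (adjusted p = 0.0171, limma). That fall missed the threshold without Ad-GFP library A (limma, adjusted p = 0.0558) and without Ad-TEADi library A (adjusted p = 0.115).

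Pfkfb3 makes and breaks down fructose 2,6-bisphosphate, the activator of phosphofructokinase. It measured 75.6, 74.2 and 72.3 CPM in the siYAP1+TAZ libraries, against 53.7, 50.004 and 49.5 CPM in the siControl libraries, with no overlap. Pfkfb3 measured 51.2, 57.2 and 56.5 CPM with Ad-TEADi and 56.4, 52.2 and 58.1 CPM with Ad-GFP, and these groups overlapped. Its log2 change was 0.53 ± 0.051 (SE) with siYAP1+TAZ (limma, adjusted p = 2.06e-08) and −0.02 with Ad-TEADi, with an interval of −0.12 to 0.09. The effects differed by −0.54 ± 0.073 (SE) (adjusted p = 5.37e-06).

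Aldolase splits the sugar into a pair of triose phosphates. Its main form here, Aldoa, rose by 0.19 with siYAP1+TAZ and 0.31 with Ad-TEADi, but the siYAP1+TAZ value was −0.004 under equal totals and −0.05 under quantile normalization. Aldoc, the brain-type form, was the only enzyme that rose with siYAP1+TAZ and fell with Ad-TEADi. It measured 21.8, 23.2 and 23.0 CPM in the siYAP1+TAZ libraries, against 12.6, 13.2 and 12.9 CPM in the siControl libraries. In the adenovirus experiment it measured 15.2, 16.7 and 15.8 CPM with Ad-TEADi, against 17.96, 19.3 and 20.7 CPM with Ad-GFP. Neither pair overlapped, and Aldoc was also higher in Ad-GFP than in siControl libraries, by 0.54 on the log2 scale. The log2 changes were 0.76 ± 0.062 (SE) and −0.27 ± 0.062 (SE), and they differed by −1.03 ± 0.088 (SE) (limma, adjusted p = 1.68e-08).

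The abundant enzymes that follow, from triosephosphate isomerase to lactate dehydrogenase A, are Tpi1, Gapdh, Pgk1, Pgam1, Eno1, Pkm and Ldha. These 7 were set apart after their values were seen, so their counts are a description. With Ad-TEADi 7 of 7 rose, by 0.20 to 0.32, where 33.5% of all genes rose. With siYAP1+TAZ 1 (Pgk1) fell and 0 rose, at an adjusted or an unadjusted p below 0.05 (limma), where 36.1% of all genes fell and 32.7% rose, and the changes were −0.17 to 0.06. The authors' deposited table has the same calls at an adjusted p below 0.05, and there Gapdh is also lower at an unadjusted p of 0.0495. The difference of effects passed the test for all 7, at 0.22 to 0.43, where 26.4% of all genes passed above 0. Each was thus further up with Ad-TEADi than with siYAP1+TAZ, relative to its own control. The controls differed too. Relative to siControl libraries, 4 of the 7 fell in Ad-GFP libraries and 0 rose, where 21.8% of all genes fell and 18.7% rose. The changes of the 7 were −0.25 to −0.09.

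Pkm, the pyruvate kinase gene, is an example. Pkm measured 3099, 3072 and 2821 CPM in the Ad-TEADi libraries, against 2429.8, 2472 and 2418 CPM in the Ad-GFP libraries, with no overlap. In the knockdown experiment it measured 2585, 2481 and 2589.8 CPM with siYAP1+TAZ, against 2760.4, 2602 and 2499 CPM with siControl, and the groups overlapped. Its log2 changes were 0.30 ± 0.052 (SE) with Ad-TEADi (limma, adjusted p = 5.92e-05) and −0.04 ± 0.052 (SE) with siYAP1+TAZ (adjusted p = 0.533).

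Ldha, which makes lactate, showed the same order. It measured 1428, 1409 and 1349.6 CPM in the Ad-TEADi libraries, against 1172, 1128 and 1169.7 CPM in the Ad-GFP libraries, and its lowest Ad-TEADi library stood above its highest Ad-GFP library. The knockdown libraries overlapped, at 1340.2, 1259.7 and 1347 CPM with siYAP1+TAZ and 1419, 1347 and 1231 CPM with siControl. The log2 changes of Ldha were 0.27 ± 0.050 (SE) with Ad-TEADi and −0.02 ± 0.050 (SE) with siYAP1+TAZ, the second with an interval of −0.12 to 0.09.

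Gapdh measured 1873, 1863 and 1717 CPM in the Ad-TEADi libraries, against 1573, 1629 and 1543 CPM in the Ad-GFP libraries. With siYAP1+TAZ Gapdh measured 1571, 1565 and 1579.8 CPM, against 1774, 1703 and 1589 CPM with siControl. The siYAP1+TAZ libraries were lower without overlap, yet the log2 change of −0.10 did not pass the test (limma, adjusted p = 0.0727). Pgk1, which makes the first ATP of the pathway, fell with siYAP1+TAZ by 0.17 (adjusted p = 0.0205), and it rose with Ad-TEADi by 0.27. The fall of Pgk1 was lost without siControl library A (limma, adjusted p = 0.109) or B (0.106) and without siYAP1+TAZ library B (0.0976) or C (0.0539).

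The calls on these 7 with siYAP1+TAZ depend on scaling. Under equal column totals all 7 fell with siYAP1+TAZ, with log2 changes of −0.36 to −0.13. Under quantile normalization all 7 fell, with −0.39 to −0.17. Of all 12966 genes 7146 fell with siYAP1+TAZ under equal totals. The median of all genes was −0.20 there and −0.09 under quantile normalization. With Ad-TEADi 6 of 7 rose under equal totals (0.10 to 0.23), where 3034 of all genes rose. Under quantile normalization 5 of 7 rose (0.11 to 0.29). The order of the effects, Ad-TEADi above siYAP1+TAZ, was the same under both, as the plot of changes by scaling shows.

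**Figure D3:**
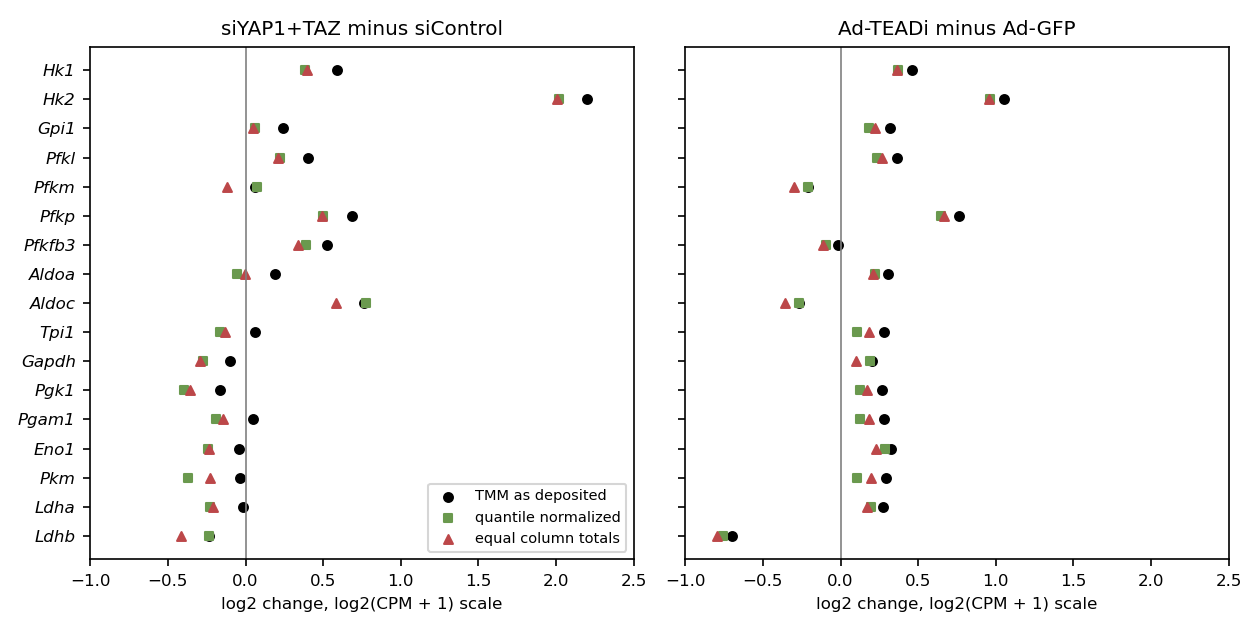
Log2 change (x axis) of the 17 enzymes (y axis, pathway order) for siYAP1+TAZ minus siControl on the left and Ad-TEADi minus Ad-GFP on the right, from the deposited TMM values (black circles), after quantile normalization (green squares) and with equal column totals (red triangles). On the left Tpi1 to Ldha lie at −0.17 to 0.06 in black and below 0 in green and red, while the largest change in all 3 is that of Hk2.

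Several of these enzymes have near-identical copies elsewhere in the genome (at least 90% identity over 300 bases of transcript), and the sources used here do not give how the authors' counting divided shared reads. Gapdh matched 177 other genes, 166 of them pseudogenes. Of the 177, 90 were in the table, with a summed mean level of 10.2% of that of Gapdh. The copies of Eno1 in the table summed to 25.8% of its level and those of Pgk1 to 20.9%. With the copies added in, the log2 ratio of means was −0.05 with siYAP1+TAZ and 0.31 with Ad-TEADi for Eno1, and −0.14 and 0.28 for Pgk1.

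Ldhb, the lactate dehydrogenase subunit common in oxidative tissue, went the other way from Ldha with Ad-TEADi. It measured 20.8, 19.7 and 21.0 CPM in the Ad-TEADi libraries, against 33.8, 36.8 and 31.4 CPM in the Ad-GFP libraries. In the knockdown experiment Ldhb measured 19.7, 23.3 and 21.7 CPM with siYAP1+TAZ, against 25.7, 26.1 and 24.5 CPM with siControl. It was lower without overlap in both, and its highest libraries were those with Ad-GFP. Ldhb fell by 0.70 with Ad-TEADi and by 0.23 with siYAP1+TAZ (limma, adjusted p = 1.26e-08 and 0.00349).

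Summed over the 17 enzymes, the level was 12258 to 13271 CPM in Ad-TEADi libraries and 10450.0 to 10540.0 CPM in Ad-GFP libraries, with no overlap. It was 11708 to 12114 CPM in siYAP1+TAZ and 10808 to 12047 CPM in siControl libraries, which overlapped. The other HIF targets summed to 3894 to 4039 CPM in siYAP1+TAZ, against 2375 to 2483 CPM in siControl libraries, and to 3151 to 3346 CPM in Ad-TEADi, against 1942 to 2052 CPM in Ad-GFP libraries. Neither of these pairs overlapped.

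The mix of forms within enzyme families was also compared, among the 36 members alone. Levels were set against each other per kilobase of the longest principal transcript in GENCODE vM21. Hk2 made up 64.1% ± 1.17 of the summed Hk1 and Hk2 level per kilobase in siYAP1+TAZ and 36.8% ± 0.813 in siControl libraries (SD, n = 3 each). The share was 41.8% ± 2.25 in Ad-TEADi and 32.3% ± 2.19 in Ad-GFP libraries. Neither pair overlapped. Pfkp made up 41.0% ± 0.825 of the 3 phosphofructokinase subunits with siYAP1+TAZ and 35.99% ± 0.758 with siControl, and 41.3% ± 0.585 with Ad-TEADi and 34.2% ± 0.783 with Ad-GFP. The share of Pfkm was 3.48% and 4.69% in siYAP1+TAZ and siControl libraries and 3.15% and 5.15% in Ad-TEADi and Ad-GFP libraries. The exact permutation test gave p = 0.1 for each of these, the smallest that 3 against 3 libraries allow.

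For the Ldhb share of lactate dehydrogenase the groups of the knockdown experiment overlapped. It was 2.18% ± 0.246 with siYAP1+TAZ and 2.53% ± 0.121 with siControl (exact permutation p = 0.2), and 1.95% ± 0.102 with Ad-TEADi and 3.83% ± 0.365 with Ad-GFP (exact permutation p = 0.1).

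**Figure D4:**
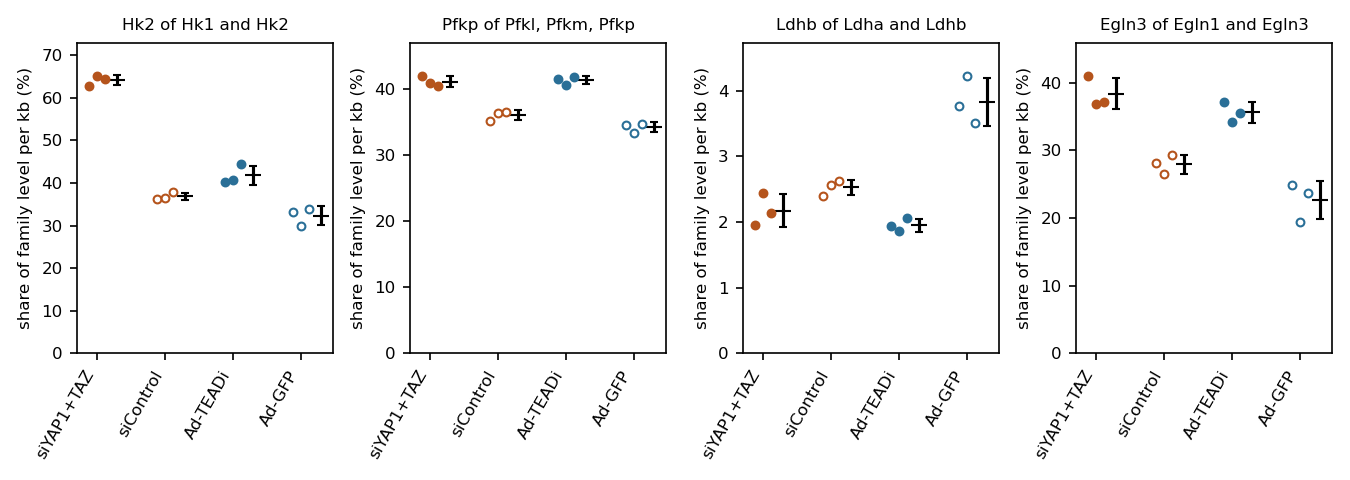
Share of 1 form in the summed level per kilobase of its family (y axis, percent) in each library by group (x axis; points are libraries, filled for siYAP1+TAZ and Ad-TEADi, and black bars are mean ± SD). The siYAP1+TAZ libraries have the highest Hk2 shares, 62.9% to 65.2%, and the Ad-GFP libraries the highest Ldhb shares, 3.51% to 4.23%.

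Among the other HIF targets that handle fuel, Slc2a1, the glucose transporter GLUT1, rose in both comparisons. It measured 866, 845 and 824 CPM in the siYAP1+TAZ libraries, against 658, 644 and 669 CPM in the siControl libraries. In the Ad-TEADi libraries it measured 723, 682 and 653 CPM, against 499.7, 515 and 508 CPM with Ad-GFP. There was no overlap in either, and the log2 changes were 0.36 ± 0.041 (SE) and 0.43 ± 0.041 (SE). Slc16a3, the lactate exporter MCT4, fell by 0.14 with siYAP1+TAZ (limma, adjusted p = 0.0179), which was lost without siControl library C (adjusted p = 0.0664) or siYAP1+TAZ library B (adjusted p = 0.117). With Ad-TEADi its change was −0.06, with an interval of −0.17 to 0.04. Pdk1, the kinase that shuts pyruvate dehydrogenase, passed in neither comparison. Its intervals were −0.15 to 0.03 with siYAP1+TAZ and −0.16 to 0.02 with Ad-TEADi. Under equal totals and under quantile normalization Pdk1 passed as lower with siYAP1+TAZ, at −0.25 and −0.21, and both Slc16a3 and Pdk1 passed as lower with Ad-TEADi, Slc16a3 at −0.16 and −0.17 and Pdk1 at −0.16 and −0.18.

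Of the secreted factors, Vegfa (chr17:46016993-46032369, minus strand), the main growth signal for blood vessels, rose at least 2-fold in both comparisons. It measured 218, 209 and 208 CPM in the siYAP1+TAZ libraries, against 92.9, 86.9 and 114 CPM in the siControl libraries. Vegfa measured 177, 159.9 and 159 CPM with Ad-TEADi and 56.3, 57.8 and 61.8 CPM with Ad-GFP. The groups were far apart in both, and the Ad-GFP libraries were below every siControl library. The log2 changes were 1.11 ± 0.070 (SE) and 1.48 ± 0.070 (SE) (limma, adjusted p = 2.27e-11 and 5.48e-13), and they differed by 0.36 ± 0.099 (SE). Adm, the vessel-dilating peptide adrenomedullin, was low in every library. It measured 4.02, 5.80 and 4.68 CPM in the siYAP1+TAZ libraries, against 3.90, 3.18 and 3.14 CPM in the siControl libraries. Adm rose by 0.40 and 0.47 on the log2(CPM + 1) scale, which understates the change of low genes, and its ratios of mean CPM were 1.42 and 1.59.

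The oxygen sensors themselves are HIF targets. Egln3 (chr12:54178981-54203860, minus strand) encodes the most inducible of the prolyl hydroxylases that mark HIF alpha for degradation. It measured 71.4, 55.8 and 58.5 CPM in the siYAP1+TAZ libraries, against 28.9, 25.1 and 29.1 CPM in the siControl libraries. With Ad-TEADi it measured 52.5, 42.9 and 46.3 CPM, against 23.5, 16.2 and 22.1 CPM with Ad-GFP. Every library with siYAP1+TAZ or Ad-TEADi was above every control library, and the log2 changes, 1.13 ± 0.11 (SE) and 1.17 ± 0.11 (SE), did not pass the test of a difference, with an interval of −0.28 to 0.37. Egln1, the main oxygen sensor in most cells, rose by 0.47 and 0.28. Of the summed Egln1 and Egln3 level per kilobase, Egln3 made up 38.4% ± 2.30 with siYAP1+TAZ and 28.0% ± 1.39 with siControl, and 35.6% ± 1.503 with Ad-TEADi and 22.7% ± 2.87 with Ad-GFP, with no overlap in either.

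Ndrg1 rose most among the other HIF targets in both comparisons. The gene (chr15:66929318-66969640, minus strand) responds to low oxygen and to differentiation in many cell types. Ndrg1 measured 965, 969 and 969 CPM in the siYAP1+TAZ libraries, against 268, 251 and 262 CPM in the siControl libraries. The virus libraries held 711, 697 and 697 CPM with Ad-TEADi and 220.2, 199 and 230.3 CPM with Ad-GFP. Libraries of a group lay close together and the groups far apart. The log2 changes of Ndrg1 were 1.89 ± 0.045 (SE) with siYAP1+TAZ and 1.69 ± 0.045 (SE) with Ad-TEADi (limma, adjusted p = 3.18e-17 and 1.64e-16), ratios of mean CPM of 3.72 and 3.24.

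Ddit4, or REDD1, which restrains the growth kinase mTORC1, rose further with Ad-TEADi than with siYAP1+TAZ. It measured 384, 331 and 319 CPM in the Ad-TEADi libraries, against 175, 166 and 177 CPM in the Ad-GFP libraries. In the knockdown experiment it measured 348, 308 and 319 CPM with siYAP1+TAZ, against 283, 261 and 278 CPM with siControl. The groups did not overlap, and the Ad-GFP libraries were below every siControl library. The log2 changes were 0.99 ± 0.059 (SE) and 0.24 ± 0.059 (SE), and they differed by 0.75 ± 0.083 (SE) (limma, adjusted p = 5.75e-07). The siYAP1+TAZ rise did not pass under equal totals, where its change was 0.05. Mxi1, an antagonist of MYC, rose by 0.92 with siYAP1+TAZ and 0.49 with Ad-TEADi, and the effects differed by −0.43 ± 0.057 (SE).

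Among the mitochondrial members, Bnip3, Bnip3l and Higd1a rose in both comparisons, while Pdk1 passed in neither. Bnip3 and Bnip3l, receptors for the removal of mitochondria, rose by 0.72 and 0.69 with siYAP1+TAZ and by 0.59 and 0.34 with Ad-TEADi. Bnip3, whose promoter is shown above, measured 217, 208 and 204 CPM in the siYAP1+TAZ libraries, against 133, 121 and 126 CPM in the siControl libraries. The groups did not overlap, and the 3 near-identical copies of Bnip3 in the table summed to 10.6% of its level. These copies went the other way, with log2 ratios of means of −1.05 with siYAP1+TAZ and −0.32 with Ad-TEADi. With the copies added in, the log2 ratio of Bnip3 was 0.57 with siYAP1+TAZ and 0.49 with Ad-TEADi. Higd1a, a small mitochondrial inner membrane protein, measured 208, 208 and 207 CPM in the siYAP1+TAZ libraries, against 123, 123 and 117 CPM in the siControl libraries. Its log2 changes were 0.78 ± 0.050 (SE) and 0.84 ± 0.050 (SE), and its siYAP1+TAZ libraries were nearly equal.

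Hilpda, which inhibits breakdown of stored fat, was the other HIF target that fell furthest with siYAP1+TAZ. It measured 4.75, 5.18 and 5.76 CPM in the siYAP1+TAZ libraries, against 7.98, 8.30 and 6.85 CPM in the siControl libraries, with no overlap. With Ad-TEADi its log2 change was 0.01, with an interval of −0.18 to 0.21, against −0.48 ± 0.092 (SE) with siYAP1+TAZ, and the effects differed by 0.50 ± 0.13 (SE) (limma, adjusted p = 0.00345). Ankrd37, a low gene of 1.63 to 4.72 CPM, rose by 0.85 and 0.40.

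Of the collagen prolyl 4-hydroxylase subunits, P4ha2 rose in both comparisons, by 0.16 and 0.40, although its siYAP1+TAZ change was −0.03 under equal totals. P4ha1 changed by −0.04 with siYAP1+TAZ, which did not pass, and rose by 0.19 with Ad-TEADi. Under equal totals and quantile normalization P4ha1 passed as lower with siYAP1+TAZ, at −0.23 and −0.20, and the Ad-TEADi call was lost. Kdm3a, a histone H3 demethylase, rose by 0.59 and 0.33.

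Hif1a (chr12:73901375-73947530, plus strand) rose in both comparisons. It measured 659, 602 and 608 CPM in the siYAP1+TAZ libraries, against 441, 423 and 434 CPM in the siControl libraries. Hif1a measured 504, 531 and 549 CPM with Ad-TEADi and 381, 345 and 381 CPM with Ad-GFP. Neither pair overlapped. The log2 changes were 0.52 ± 0.047 (SE) and 0.52 ± 0.047 (SE) (limma, adjusted p = 6.35e-09 and 1.17e-08), and the interval of their difference was −0.15 to 0.13. HIF-1 alpha is controlled mainly through its protein, so these values describe the transcript alone.

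The effects of YAP1 and TAZ knockdown and of TEADi were then compared directly. The difference of effects, Ad-TEADi minus siYAP1+TAZ, passed the test for 23 of the 36 members, 12 above 0 and 11 below, where 51.5% of all genes passed, 26.4% above and 25.1% below. Among the enzymes 7 were above 0, the block from Tpi1 to Ldha, and 5 were below, namely Hk2, Aldoc, Pfkfb3, Ldhb and Pfkm. Among the other HIF targets 5 were above 0 (Ddit4, Hilpda, Vegfa, P4ha2 and P4ha1) and 6 below (Egln1, Ndrg1, Bnip3l, Ankrd37, Mxi1 and Kdm3a). The difference of Pfkm was lost without siControl library C (limma, adjusted p = 0.0951), siYAP1+TAZ library B (0.0626) or C (0.0685), Ad-GFP library A (0.0658) or Ad-TEADi library A (0.0955). That of Egln1 was lost without siYAP1+TAZ library A (limma, adjusted p = 0.0521) and that of Ndrg1 without Ad-GFP library C (0.0539). Under equal totals the counts were 10 above and 4 below for the enzymes and 8 above and 3 below for the other targets, and under quantile normalization 9 and 5, and 6 and 4. The median difference of all genes was 0.10 and 0.05 under these scalings, in place of 0.02. The experiments also differ in carrier, and its part and that of the agent in the difference cannot be told apart.

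**Figure D5:**
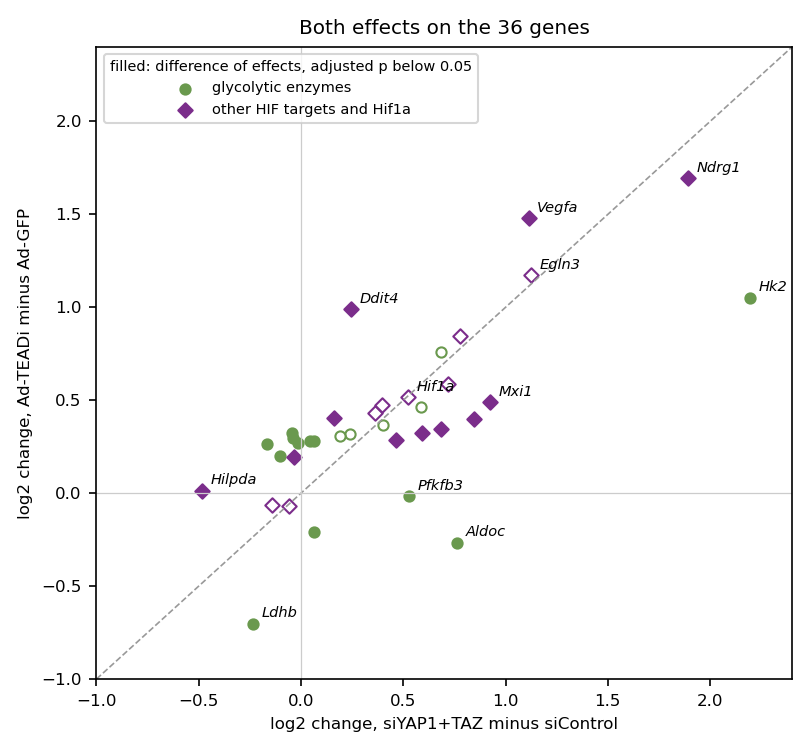
Log2 change with siYAP1+TAZ (x axis) and with Ad-TEADi (y axis) for the 36 genes, enzymes as green circles and other HIF targets with Hif1a as purple diamonds; the dashed line marks equal changes and filled symbols a difference of effects with an adjusted p below 0.05. Hk2 lies furthest below the line (difference −1.14) and Ddit4 furthest above it (0.75).

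The members also differed between the control groups, which had different carriers. Relative to siControl libraries, 3 enzymes rose and 6 fell in Ad-GFP libraries, and 12 of 18 other HIF targets fell (limma, adjusted p below 0.05), where 40.4% of all genes passed, 18.7% as higher and 21.8% as lower. No other HIF target rose, at an unadjusted p below 0.05 either (limma). By libraries that do not overlap, 4 of the 36 members were higher and 21 lower, against 23.5% and 26.2% of all genes. Vegfa averaged 58.7 ± 2.83 CPM with Ad-GFP and 97.9 ± 14.1 CPM with siControl (SD, n = 3 each), a log2 change of −0.72. Ddit4 changed by −0.66, Adm by −0.62, Egln3 by −0.43, Slc2a1 by −0.37 and Hif1a by −0.23. Among the enzymes Aldoc and Ldhb rose, by 0.54 and 0.40, and Pgk1 fell by 0.25. Under equal totals 4 enzymes rose and 3 fell, and the median change of all genes moved by 0.04. Without siControl library A 3 enzymes fell. This comparison shares its libraries with both others, so it adds no independent evidence on the members. Suprabasal markers were lower in Ad-GFP than in siControl libraries too, 12 of 15 of them.

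The wider pathway was described with lists of other genes, counted on the deposited values alone and not under the other scalings. Their shares are set beside those of all genes: 32.7% rose and 36.1% fell with siYAP1+TAZ, and 33.5% rose and 26.3% fell with Ad-TEADi. Of 14 tested HIF pathway regulators, 7 rose (50%) and 6 fell (42.9%) with siYAP1+TAZ, and 8 rose (57.1%) and 1 fell (7.14%) with Ad-TEADi. Epas1, which encodes HIF-2 alpha, rose by 2.03 ± 0.12 (SE) with siYAP1+TAZ and 0.96 ± 0.12 (SE) with Ad-TEADi. It measured 36.3, 34.7 and 31.8 CPM in the siYAP1+TAZ libraries, against 7.16, 7.86 and 7.91 CPM in the siControl libraries, with no overlap. Cited2, which competes with HIF for the coactivators p300 and CBP, changed by −0.99 and −1.63. Crebbp, the gene of CBP, rose by 0.70 with siYAP1+TAZ, and Siah2, a ligase that degrades prolyl hydroxylases, rose by 0.76 with Ad-TEADi.

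Of 20 further HIF targets outside the 36, 7 rose (35%) and 10 fell (50%) with siYAP1+TAZ, with a median of −0.09. With Ad-TEADi 12 rose (60%) and 5 fell (25%), with a median of 0.21. Risers with siYAP1+TAZ were thus near the share of all genes, 32.7%, while fallers there and risers with Ad-TEADi were above the 36.1% and 33.5% of all genes. Pfkfb4, a relative of Pfkfb3, rose by 2.02 and the heme oxygenase Hmox1 by 1.98 with siYAP1+TAZ, while the lipid droplet coat gene Plin2 changed by −1.15. With Ad-TEADi the lipase inhibitor gene Angptl4 changed by −2.23, the stanniocalcin gene Stc2 by 1.62 and Hmox1 by 1.58.

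Of 13 genes that serve the entry of pyruvate into mitochondria, 9 fell with siYAP1+TAZ (69.2%, where 36.1% of all genes fell) and 2 rose (15.4%, where 32.7% of all genes rose). With Ad-TEADi 5 fell (38.5%, beside 26.3%) and 3 rose (23.1%, beside 33.5%). Pdk4, a pyruvate dehydrogenase kinase that responds to fasting, rose by 1.14 and 0.63. The pyruvate dehydrogenase phosphatase Pdp1 changed by −0.55 and the mitochondrial pyruvate carrier Mpc1 by −0.54 with siYAP1+TAZ. Pdk2 changed by −0.74 and the lactate and pyruvate transporter Slc16a1 by 0.34 with Ad-TEADi.

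Of 8 pentose phosphate genes 1 rose (12.5%) and 4 fell (50%) with siYAP1+TAZ, and 4 rose (50%) and 1 fell (12.5%) with Ad-TEADi. The entry enzyme G6pdx rose in both, by 0.51 and 0.41, while H6pd, its counterpart in the endoplasmic reticulum, changed by −0.75 and −1.005. Pgd changed by −0.27 with siYAP1+TAZ and Rpia by 0.21 with Ad-TEADi. Of 8 tested other glycolysis isozymes 1 rose (12.5%) and 4 fell (50%) with siYAP1+TAZ, and 2 rose (25%) and 3 fell (37.5%) with Ad-TEADi. Gapdhs, the testis form of Gapdh, rose by 1.34 and 0.85. Tigar and Pfkfb2 changed by −0.44 and −0.38 with siYAP1+TAZ, and Pfkfb1 and Pfkfb2 by 0.58 and −0.39 with Ad-TEADi.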

How the data were processed

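Poly(A) RNA was sequenced in 12 libraries, 3 in each of 4 groups. The submitters' processing notes name the build mm10 and the programs Partek 8.0.19.0819, STAR 2.7.0f and cutadapt 1.18. The authors deposited CPM values scaled by TMM, per the file's name. A deposited table holds the authors' own p-value, adjusted p-value and ratio for both main comparisons, by a test not given in the sources used here. The counting rule and its use of strand are not given there either. From the deposited values, limma 3.58.1 in R 4.3.3 was fitted to log2(CPM + 1), which understates changes of low genes, using 1 fit of all 12 libraries, 4 group means and a trend in the spread. A gene was kept if 3 or more libraries reached 1 CPM, which set aside 4124. Tests were two-sided, Benjamini-Hochberg adjusted over 12966 genes at 0.05, and the code was tested on simulated data. Reads recovered from low values were whole (within 0.1) in only 82.7% to 85.0% of cases, short of 95%, so count models were not used. Positions are those of the deposited table on mm10 with 1 subtracted from the end, which matched GENCODE vM21 for 35 of 36 members, all but Aldoa. The members and lists were chosen with earlier results of these data known. Named outside the 36 are up to 3 genes per list and comparison with the largest change among those that passed, markers and the targeted genes. Alternatives were another pseudocount (0.1), no filter, equal column totals, quantile normalization, a fit of the compared groups only, a replicate block and leaving out each library. Libraries with the same letter did not deviate together in every pair, so the letters were not used as pairs.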

Additional observations from a re-analysis of the deposited data

How the results depend on the processing

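Direction and call of the members depended mainly on scaling. With equal column totals, genes called lower with siYAP1+TAZ numbered 7146. Under equal totals and under quantile normalization, 8 enzymes and 4 other HIF targets fell with siYAP1+TAZ and 2 other HIF targets fell with Ad-TEADi, and in Ad-GFP relative to siControl 3 enzymes fell. Equal totals alone gave 8 other HIF targets above 0 and 3 below in the difference of effects, and 1 other HIF target higher in Ad-GFP than in siControl. Changes with siYAP1+TAZ that turned sign and passed the test before or after were those of Aldoa (−0.0039 and −0.052), Tpi1 (−0.13 and −0.17) and Pgam1 (−0.15 and −0.19) under equal totals and quantile normalization, and P4ha2 (−0.027) under equal totals. Changes that passed neither before nor after also turned sign with siYAP1+TAZ, that of Pfkm under equal totals (−0.12) and without siControl library C (−0.0053), those of Eno1 (0.0056), Pkm (0.00077) and Ldha (0.030) without siControl library A, and that of Ldha without siYAP1+TAZ library B (0.015). The siYAP1+TAZ columns have the highest totals, so equal totals lower all their values. On leaving out each library in turn, 1 to 3 enzymes and 1 to 2 other HIF targets fell with siYAP1+TAZ, and 3 to 7 enzymes fell in Ad-GFP relative to siControl. The other pseudocount, no filter and the compared groups alone gave counts within 1.5 times of those reported for all genes, the enzymes and the other HIF targets. The marker lists and the lists of other pathway genes were not counted under the alternatives. The fit of the compared groups alone gives no value for the difference of effects, and edgeR on recovered reads was not run because too few values were whole. With the letters as a replicate block Gapdh passed as lower with siYAP1+TAZ (−0.10, limma adjusted p = 0.0404). Correlations of same-lettered libraries were −0.01 to 0.09 in the knockdown and −0.004 to 0.16 in the adenovirus experiment. Those of libraries with different letters were −0.08 to 0.05 and −0.17 to 0.03. In the adenovirus experiment B with B (0.15) and C with C (0.16) were the highest. Depth limits Adm, Ankrd37 and Hilpda most, all below 10 CPM.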
